A study of Mus musculus with 4 samples.

Results

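Nuclei carrying transcripts of immune cells were picked from single-nucleus RNA sequencing of the mouse kidney. A nucleus was a member when it had a UMI (unique molecular identifier, a count of 1 captured RNA molecule) in at least 2 of the 7 genes *Ptprc*, *Cd74*, *Csf1r*, *C1qa*, *C1qb*, *Mrc1* and *Ctss*. It also had to hold at most 2 UMIs of *Lrp2* (proximal tubule), at most 2 of *Slc12a1* (thick ascending limb) and at most 1 of *Flt1* (endothelium). This gave 171 members among 27343 kept nuclei. There were 53 in control mouse 1, 35 in control mouse 2, 53 in knockout mouse 1 and 30 in knockout mouse 2.

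The libraries came from 4 male mice, each 12 weeks old and each giving 1 library from a middle slice of kidney whose cortex had been trimmed away, so that medulla was enriched. All 4 mice carried floxed *Tfap2a* on both alleles (Tfap2a fl/fl). The 2 knockout mice also carried Hoxb7Cre (Hoxb7Cre+;Tfap2a fl/fl), and the 2 control mice lacked Cre. Hoxb7Cre recombines in the ureteric bud and the collecting ducts that grow from it and not in blood-derived cells, so the gene was not targeted in immune cells themselves. Because the library counts the end of the transcript, *Tfap2a* UMIs do not report on the floxed exons. All p-values here rest on 2 mice against 2, and the lowest two-sided p that exact permutation can reach for 1 value is 0.33.

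Resident macrophages and dendritic cells form a network between the tubules of the kidney. *Ptprc* encodes CD45, the phosphatase of all nucleated blood cells. *Cd74* encodes the invariant chain that escorts class II histocompatibility molecules, *Csf1r* the receptor that macrophages need for survival, and *C1qa* and *C1qb* chains of complement C1q, which tissue macrophages secrete. *Mrc1* encodes the mannose receptor and *Ctss* cathepsin S, a protease that trims the invariant chain. *Ptprc* lies on chromosome 1 (138062859 to 138175756), *Mrc1* on chromosome 2 (14229414 to 14332023) and *Ctss* on chromosome 3 (95526786 to 95556405) of mm10, as placed by RefSeq on GRCm38.p6. The 3 C1q genes sit side by side on chromosome 4, *C1qb* at 136880126 to 136886200, *C1qc* at 136889801 to 136892936 and *C1qa* at 136895916 to 136898844.

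The name immune nuclei held for only some of the members. A list of 20 genes of leukocyte signaling and cytoskeleton (among them *Ikzf1*, *Dock2*, *Arhgap15*, *Laptm5* and *Vav1*), none of which the rule used, separated the members into groups with few and with many of these genes. At least 3 of the 20 were detected in 80 members and 0 to 2 in 91. The first group held 27, 17, 29 and 7 nuclei of control mouse 1, control mouse 2, knockout mouse 1 and knockout mouse 2, and the second held 26, 18, 24 and 23. Only 17 members had 3 to 5 of the genes, whereas 63 had 6 or more and 34 had none. Some of the 20 are also tubule transcripts here, with *Dock8* in 31.9% and *Arhgap15* in 20.1% of proximal tubule nuclei, and 1537 nuclei outside the members, with a median of 3879 UMIs, had 3 or more as well. The cut at 3 genes was set after the values were seen, so every contrast between these groups is a description without a test. They are called leukocyte-rich and leukocyte-poor members here. Leukocyte-poor members were deeper, with a median of 2776 UMIs against 1504, and had a UMI in a median of 7 of 23 tubule genes against 4. At least 3 tubule genes were found in 153 of the 171 members, so tubule RNA was present in most members of both groups. No doublet caller was run, and the part of mixed droplets in either group was not tested.

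**Figure D1:**
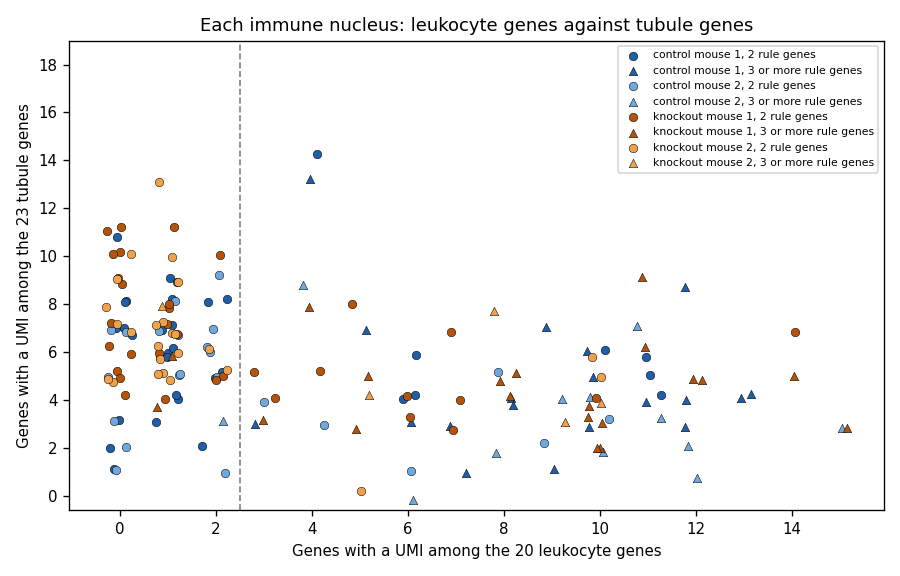
Each point is 1 of the 171 members, with the number of the 20 leukocyte genes on the x axis and the number of the 23 tubule genes on the y axis (both counts of genes with a UMI; points are jittered). Colours give the mouse and triangles the members with 3 or more rule genes, and the dashed line parts the 91 members with 0 to 2 leukocyte genes from the 80 with 3 or more.

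The number of rule genes followed the same divide. Of the 171 members, 115 had exactly 2 rule genes, of which 87 were leukocyte-poor and 28 leukocyte-rich. Of the 56 members with 3 or more rule genes, 52 were leukocyte-rich. The most frequent combination was *Cd74* with *Csf1r* alone, in 63 members (21, 13, 10 and 19 per mouse in the order above), with a median of 1 leukocyte gene and 7 tubule genes. *Ptprc* with *Cd74* alone followed in 20 members, with a median of 7 leukocyte genes. *Ptprc* itself had a UMI in 64 of 80 leukocyte-rich members and in 6 of 91 leukocyte-poor members, and *Ctss* in 42 and 4. *Csf1r* ran the other way, in 29 leukocyte-rich and 67 leukocyte-poor members.

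*Cd74* and *Csf1r* were the 2 rule genes with wide detection outside the members. In 12660 nuclei with at least 3 *Lrp2* UMIs, taken as proximal tubule, *Csf1r* had a UMI in 10.6%, 17.6%, 8.60% and 12.0% of nuclei of control mouse 1, control mouse 2, knockout mouse 1 and knockout mouse 2. In 5492 nuclei with at least 3 *Slc12a1* UMIs, taken as thick ascending limb, the shares were 1.35%, 1.90%, 1.12% and 1.29%. The tubule classes did not overlap in any mouse. Their depths differed, with medians of 3374 and 1980 UMIs, but the level of *Csf1r* in CPM (UMIs of a gene per 1000000 UMIs, summed over nuclei) also differed, from 29.1 to 56.6 in proximal tubule nuclei and from 5.54 to 9.64 in thick ascending limb nuclei. After each nucleus was thinned to 1000 UMIs, *Csf1r* was seen in 2.56% to 5.11% of proximal tubule nuclei and in 0.364% to 1.19% of thick ascending limb nuclei.

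*Cd74* had a UMI in 9.67% to 14.7% of proximal tubule nuclei, 3.43% to 8.02% of thick ascending limb nuclei and 14.7% to 29.5% of 1525 endothelial nuclei (at least 2 endothelial genes, members and nuclei rich in *Lrp2* or *Slc12a1* left out). *Ptprc*, by contrast, was found in 0.213% of all proximal tubule nuclei and *C1qa* in 0.261%. In barcodes under 100 UMIs, which hold free RNA, *Cd74* stood at 158.1 and *Csf1r* at 29.7 CPM. The number of *Cd74* UMIs per *Csf1r* UMI was 1.18 in proximal tubule, 4.47 in thick ascending limb and 51.0 in endothelial nuclei. It was 29.3 in leukocyte-rich members, with 16.3 to 52.6 over the mice, and 1.59 in leukocyte-poor members, with 0.905 to 4.09. Over the mice it was 0.811 to 1.72 in proximal tubule nuclei. Both are rule genes, so the ratios in members are a description. Where these UMIs came from was not tested.

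**Figure D2:**
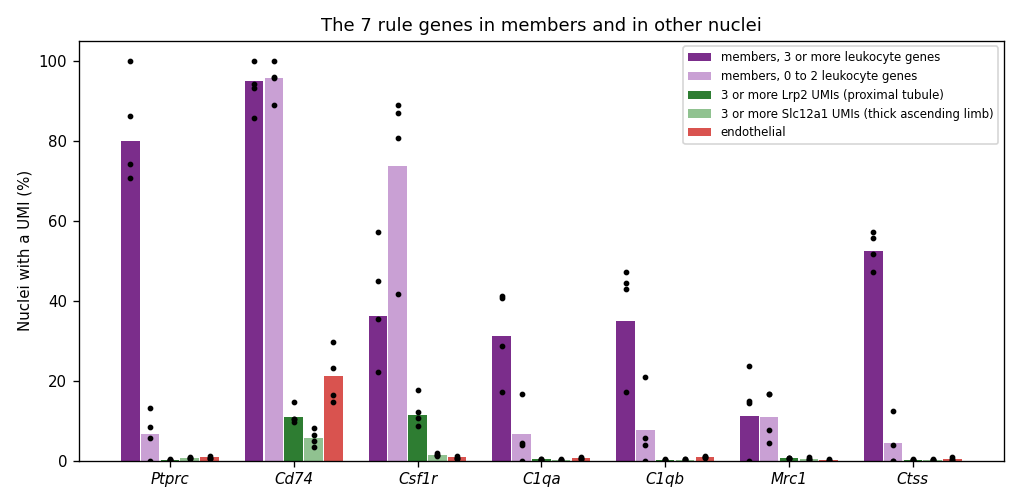
Bars give the share of nuclei with a UMI of each of the 7 rule genes (y axis, percent) over all 4 mice, and dots the 4 mice. *Ptprc* is present in 80.0% and *Ctss* in 52.5% of members with 3 or more leukocyte genes, *Csf1r* is most frequent in members with 0 to 2 leukocyte genes and reaches 11.4% of proximal tubule nuclei, and *Cd74* is present in every class.

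The values just outside the rule were of the same kind. A further 381 nuclei had at least 2 rule genes but were excluded by *Lrp2*, *Slc12a1* or *Flt1*, and 338 of them exceeded the limit for *Lrp2*. Their median was 1 leukocyte gene at 3925 UMIs. The 42 members with exactly 2 *Lrp2* UMIs and the 38 excluded nuclei with exactly 3 both had a median of 1 leukocyte gene. Among the excluded nuclei only 10 had 6 or more leukocyte genes. Another 1046 nuclei passed the exclusions with exactly 1 rule gene, and 19 of those had 6 or more leukocyte genes. No member shared its barcode with a member of another library, and 2 members shared theirs with a kept nucleus of another library.

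The 25 genes with the highest level in members relative to all other nuclei, rule genes left out, were led by *Lyz2* (lysozyme), *H2-Aa*, *H2-Eb1* and *H2-Ab1* (class II chains), *Ccr2* (the receptor that draws monocytes into tissue), *Cybb* (the catalytic subunit of the phagocyte NADPH oxidase), *Dock2*, *Fcer1g* and *Runx1*. *Lyz2* stood at 603.8 CPM in members and 1.54 CPM in other nuclei, *H2-Aa* at 973 and 10.6, and *Ccr2* at 219 and 0.257. Since the members were chosen by their transcripts, these ratios describe the choice and were not tested. The leukocyte-rich members held nearly all of this signal. They carried 236 of 237 *Lyz2* UMIs, 373 of 382 *H2-Aa* UMIs, and all 86 *Ccr2*, 81 *Cybb* and 92 *Dock2* UMIs of the members. *Lyz2* was concentrated, with UMIs in 28 members and 40 UMIs in 1 of them, while *Dock2* was spread over 50. *Dock2*, *Dock10* and *Laptm5* are on the leukocyte list itself, so their place in that group follows from the choice.

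**Figure D3:**
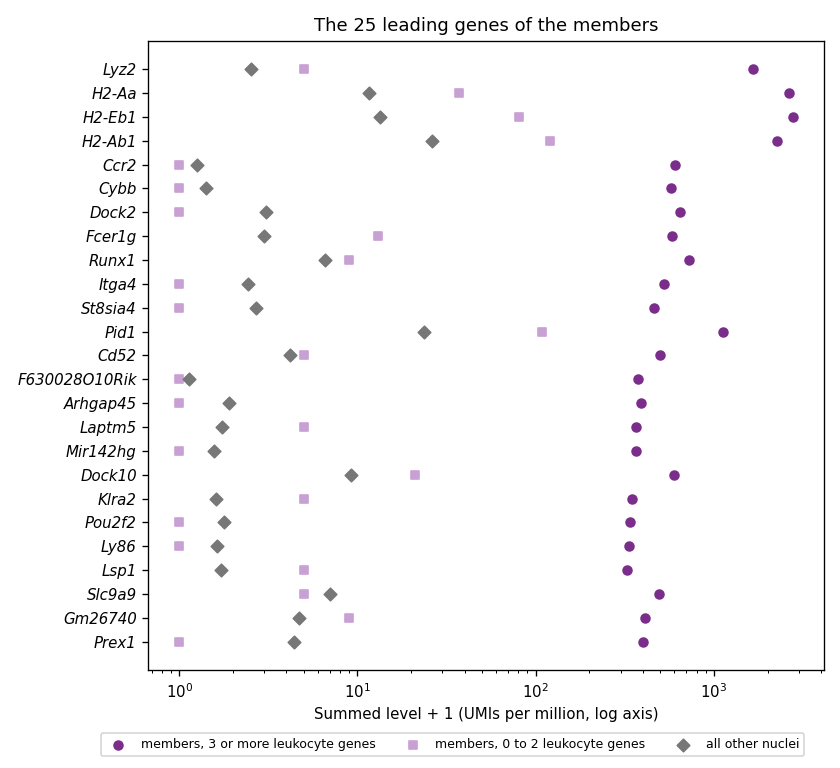
Summed level plus 1 (x axis, CPM on a log axis) of the 25 leading genes in members with 3 or more leukocyte genes, members with 0 to 2, and all other nuclei. For *Dock2* the levels are 648, 0 and 2.08, and in all 25 genes the first group is the highest.

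Genes of class II antigen presentation were abundant in leukocyte-rich members. Every one of the 10 listed genes had a UMI in members, and their summed level was 8677 CPM in leukocyte-rich members, 263.5 in leukocyte-poor members and 68.5 in other nuclei. *H2-Aa*, *H2-Ab1* and *H2-Eb1* encode the chains of the surface molecules, and at least 1 of the 3 was found in 69 of 80 leukocyte-rich members. *Ciita*, the coactivator that switches on this gene set, had 68 UMIs in 32 members. Of the peptide loading chaperones, *H2-DMa* had 20 and *H2-DMb1* 27 UMIs. The costimulatory ligand *Cd86* had 21 UMIs in 14 members, all leukocyte-rich, and *Cd80* had 1 UMI.

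Macrophage genes were present but uneven. Of the 20 genes on the macrophage list 18 had a UMI, and *Cd163* and *Lyve1* were listed at 0. *C1qc* (20 of its 21 nuclei), *Adgre1* (19 of 19, the F4/80 antigen), *Cx3cr1* (19 of 20, the fractalkine receptor) and *Cd68* (11 of 11) were found mainly in leukocyte-rich members. Other names on the list were tubule transcripts in this tissue. *Mertk*, a receptor for dying cells, had a UMI in 34 leukocyte-poor and 3 leukocyte-rich members and in 49.8% of proximal tubule nuclei, *Maf* in 67.5% of those nuclei and *Folr2*, a folate receptor, in 19.6%. The summed list level was 3106 CPM in leukocyte-rich members but also 455.1 in leukocyte-poor members and 596.9 in other nuclei. *Lyz2* alone made up 1662 of the 3106 CPM.

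Leukocyte-rich members could be described by whether they held a C1q transcript. A UMI of *C1qa*, *C1qb* or *C1qc* was found in 35 of the 80, and 45 had none. The 45 were mixed and included the 6 nuclei with at least 3 *Siglech* UMIs described below. Of 7 members with at least 2 B lineage genes, 1 held a C1q transcript. *Ccr2* was detected in 11 of the 35 and 25 of the 45, and *Lyz2* in 8 and 19. *Plac8*, a gene known from inflammatory monocytes and plasmacytoid dendritic cells, had 1 UMI in the nuclei with C1q and 63 in those without. In the other direction *Cx3cr1* had 15 UMIs in the nuclei with C1q and 7 in those without, and *Mrc1* 14 and 3. Among class II genes, *H2-Aa* stood at 2762 CPM with C1q and 2509 CPM without, and *H2-Eb1* at 3396 and 2245 CPM. Nuclei with C1q numbered 15 and 10 in control and 6 and 4 in knockout mice, whereas those without numbered 12 and 7 in control and 23 and 3 in knockout mice. As a share of kept nuclei the former were 0.194% and 0.184% in control and 0.0750% and 0.0648% in knockout mice, without overlap. As a share of leukocyte-rich members they were 55.6% and 58.8% in control and 20.7% and 57.1% in knockout mice, with overlap. Leukocyte-rich members had a median of 1581 and 1527 UMIs in control and 1253 and 1654 in knockout mice. The grouping by C1q was chosen after its values were seen and was not tested. Over all kept nuclei, C1q transcripts were found in 0.620% and 1.22% of nuclei of the control mice and in 0.850% and 0.421% of the knockout mice, and there the genotypes overlapped.

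A small set of members carried *Siglech*, which encodes a lectin known from plasmacytoid dendritic cells. *Siglech* had 53 UMIs in 8 members, of which 51 were in 6 nuclei with at least 3 UMIs each (3 from control mouse 1, 1 from control mouse 2, 2 from knockout mouse 1 and none from knockout mouse 2). All 6 also had *Runx2*, *Bcl11a*, *Grm8* and *Ccr2*, and none had *Lyz2* or *C1qa*. These 6 nuclei held all 63 *Grm8* UMIs, 43 of 77 *Runx2* UMIs and 79 of 192 *Tcf4* UMIs. *Tcf4* and *Bcl11a* encode transcription factors known for their role in that lineage. *Clec9a*, a receptor of conventional dendritic cells that take up dead cells, had 13 UMIs in 5 members, and *Flt3*, the cytokine receptor of dendritic cell development, had 12 UMIs in 7. Part of these lay in the same 6 nuclei, which held 6 *Clec9a* UMIs in 2 nuclei and 2 *Flt3* UMIs in 2 nuclei. *Xcr1* was listed at 0.

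At least 1 of the 5 listed monocyte genes was found in 49 of the 171 members, and *Ccr2* alone in 36, all leukocyte-rich. At least 2 of the 5 were found in 21 members, all leukocyte-rich, with 7, 4, 10 and 0 in control mouse 1, control mouse 2, knockout mouse 1 and knockout mouse 2. These 21 include nuclei with at least 3 *Siglech* UMIs, since *Ccr2* and *Plac8* are both listed and were found in 6 and 5 of those 6. The 21 are thus no count of monocytes. *Ly6c2* had 15 UMIs in 10 members and *Chil3* 8 UMIs in 3. Neutrophil and mast cell genes were nearly missing, with 2 UMIs of *Csf3r* in 2 members and none of the other 9 genes of the lists. *S100a8* and *S100a9*, the abundant granulocyte genes, were listed at 0 in members.

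Among B lineage genes *Ighm* (immunoglobulin mu chain) was found in 22 members, *Bank1* in 11 and *Cd79b* in 6, all leukocyte-rich. At least 2 of the 8 listed genes were present in 7 members (2, 1, 2 and 2 per mouse), which carried 25 of 32 *Bank1* UMIs and all 13 of *Pax5*, the factor that fixes B cell identity. A single nucleus of knockout mouse 1 held all 68 *Jchain* UMIs and 78 of the 79 *Igha* UMIs. These encode the joining chain and the heavy chain of immunoglobulin A, which plasma cells make in bulk. Any level of *Igha* or *Jchain* by genotype is thus the level of 1 nucleus.

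Lymphocytes of other kinds lay mainly outside the rule. At least 2 of the 15 T cell genes were found in 5 members, and *Cd4*, *Cd8a*, *Trac* and *Tcf7* were listed at 0 in members. Among nuclei that were not members, 38 had 6 or more leukocyte genes (9, 4, 20 and 5 per mouse), and 21 of those had at least 2 T cell genes, against 4 of the 63 members with as many leukocyte genes. The leading genes of the 38 included *Gzma* and *Ccl5*, products of cytotoxic lymphocytes, *Ms4a4b*, *Il7r* (the interleukin 7 receptor) and *Themis* (a T cell signaling protein). *Gzma* had 65 UMIs in 8 of these nuclei and 15 UMIs in 3 members. *Ptprc* was found in 32 of the 38 nuclei, *Cd74* in 12 and *Csf1r* in 1. Of the 38, 19 passed the exclusions with exactly 1 rule gene, and 10 had 2 or more rule genes but were over the limit on *Lrp2*, *Slc12a1* or *Flt1*.

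The Fc receptor list, receptors and adaptors of phagocytes, stood at 1888 CPM in leukocyte-rich and 31.9 CPM in leukocyte-poor members. It was led by *Tyrobp* (87 UMIs in 36 members) and *Fcer1g* (85 UMIs in 39), the signaling chains that many myeloid receptors share, and by the kinase *Syk* (55 UMIs in 32). *Fcgr3* and *Fcgr4*, the activating receptors for immunoglobulin G, had 16 and 12 UMIs. Among transcription factors, *Spi1* (PU.1, the master regulator of myeloid cells) had 38 UMIs in 25 members, 24 of them leukocyte-rich, and *Runx1* had 105 UMIs in 47. *Irf8* was listed at 0 in members. *Zeb2*, with 300 UMIs in 94 members, was also detected in 63.6% of proximal tubule nuclei.

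Transcripts of secreted cytokines were scarce. Of 21 listed ligands 13 had a UMI in members, and the most frequent were *Pdgfc* (26 UMIs), *Cxcl16* (24), *Tgfb1* (23) and *Grn* (20). *Il1b* had 7 UMIs in 7 members, *Tnf* 3 UMIs in 2 members, and *Il6*, *Il10* and *Cxcl10* were listed at 0. *Pdgfc* lay in 18 leukocyte-poor and 2 leukocyte-rich members and in 40.4% of proximal tubule nuclei. All 20 listed cytokine receptors had a UMI, led by *Tgfbr1* with 147 UMIs in 61 members, and *Il10ra*, which restrains macrophage activation, had 15 UMIs in 15 members, all leukocyte-rich. Division genes were near 0, with 3 UMIs of *Mki67* and 1 each of *Top2a* and *Kif11*.

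Lysosomal and iron genes parted the groups less. The lysosome list stood at 4733 CPM in leukocyte-rich members, 2132 in leukocyte-poor members and 2178 in other nuclei. *Psap*, the saposin precursor, made up 251 of its UMIs, and *Apoe* 85. *Fth1*, ferritin heavy chain, was detected in all 171 members and in 99.0% of proximal tubule nuclei, and thus marked no group.

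The leukocyte-poor members carried tubule transcripts. Their summed level of the 9 proximal tubule genes was 7517 CPM, against 3345 CPM in leukocyte-rich members and 15130 CPM in proximal tubule nuclei. *Cyp7b1*, an oxysterol hydroxylase, had 1197 UMIs in 64 of the 91, at 4778 CPM against 1603 in proximal tubule nuclei and 274.7 in leukocyte-rich members. *Wdr17* stood at 2339 and *Rnf24* at 1477, against 875.0 and 610.7 in proximal tubule nuclei. The group was not uniform. 1 nucleus of knockout mouse 1 held 38 of the 43 *Slc12a3* UMIs (the thiazide-sensitive transporter of the distal convoluted tubule), and *Gucy1a2*, a guanylate cyclase subunit, had 29 UMIs in 5 nuclei. Of the 91 nuclei 68 had 1 or 2 *Lrp2* UMIs. *Lrp2*, limited by the rule, stood at 411.2 CPM in them and 204.3 CPM in leukocyte-rich members.

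Whether loss of *Tfap2a* in the ureteric lineage was accompanied by a change in the share of these nuclei was asked first. Members made up 0.685% (95% Wilson interval 0.524% to 0.895%) of the kept nuclei of control mouse 1 and 0.645% (0.464% to 0.895%) of control mouse 2. In knockout mouse 1 the share was 0.663% (0.507% to 0.866%) and in knockout mouse 2 0.486% (0.340% to 0.692%). The genotypes overlapped, and the knockout mean was lower by 0.0906 percentage points (exact permutation test over 4 mice, two-sided p = 0.67). The intervals cover counting error only.

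Knockout mouse 2 differed most among the narrower counts. Members with at least 3 rule genes made up 0.246% and 0.221% of control and 0.250% and 0.0809% of knockout nuclei (exact permutation test, p = 1). Leukocyte-rich members made up 0.349% and 0.313% in control and 0.363% and 0.113% in knockout mice. In both counts knockout mouse 1 lay above both control mice and knockout mouse 2 below them. The share of leukocyte-poor members ranged from 0.300% to 0.372% over the 4 mice.

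**Figure D4:**
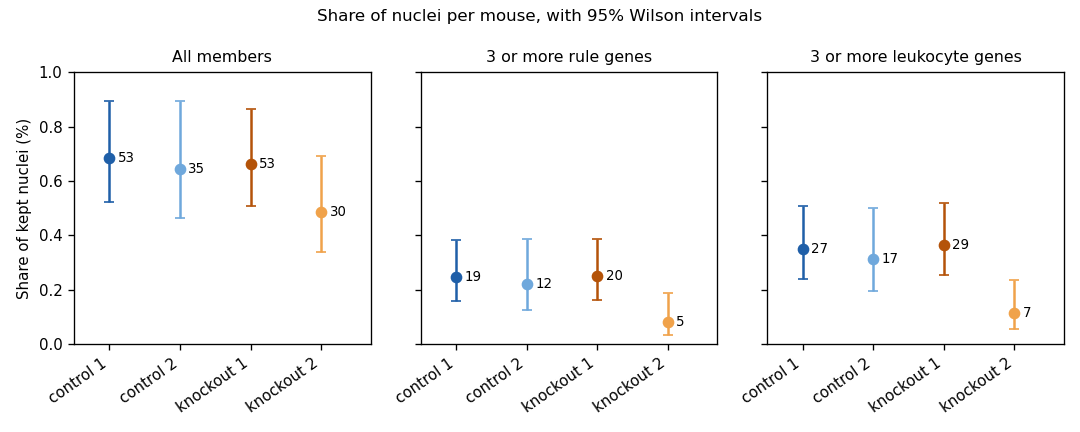
Share of kept nuclei (y axis, percent) in each mouse with its 95% Wilson interval and the number of nuclei, for all 171 members, the 56 with 3 or more rule genes and the 80 with 3 or more leukocyte genes. Knockout mouse 2 is lowest in all 3 panels, and the other 3 mice lie close together.

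The make-up of the members differed between the knockout mice, and depth moved with it. Median UMIs per member were 2150 and 1972 in control mouse 1 and 2, and 1582 and 2797.5 in knockout mouse 1 and 2 (exact permutation test, p = 1). The median number of genes was 1322, 1315, 1037 and 1675. The median mitochondrial share was 2.23% and 0.961% in control mice and 1.80% and 0.714% in knockout mice (exact permutation test, p = 0.67). Over all other nuclei the median was 2588, 2655, 2515 and 2797 UMIs, so that the gap between the knockout mice was wider in members. Of the 30 members of knockout mouse 2, 23 were leukocyte-poor.

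The summed levels of the lists in members showed the same order. The leukocyte list stood at 4003 and 3943 CPM in control and at 4929 and 1519 CPM in knockout mice, and class II antigen presentation at 3588 and 2492 against 5266 and 1427 (exact permutation test, p = 1 for both). The macrophage list stood at 1316 and 1785 in control and 1806 and 765.5 in knockout mice (exact permutation test, p = 1). In these 3 lists knockout mouse 1 was highest and knockout mouse 2 lowest. *Lyz2* alone, on the macrophage list, stood at 344.7 and 892.7 CPM in control and 1174 and 69.6 CPM in knockout mice. The high macrophage level of knockout mouse 1 thus rested on this gene. The proximal tubule list was 5813 and 5232 in control and 5389 and 7725 in knockout mice (exact permutation test, p = 0.67). Cytokine receptors stood at 1473 and 1401 in control and at 1225 and 591.6 in knockout mice, and secreted cytokines at 430.9 and 471.1 against 367.4 and 266.8. The NK cell list stood at 164.5 and 74.4 against 30.6 and 11.6, and 15 of its 31 UMIs were *Gzma*. The exact permutation test gave p = 0.33 for each of these lists, the smallest p the design allows. The lists of division genes, endothelial genes and the genes limited by the rule gave the same p. No other list separated the genotypes, and values unrelated to genotype would do so at a rate of 0.33. Cytokine receptors were also lower in both knockout mice in leukocyte-rich members (2772 and 3088 against 2257 and 2248 CPM). With at least 3 rule genes they stood at 3142 and 3252 in control and 2890 and 2316 CPM in knockout mice. Without members that had UMIs in at least 3 tubule genes, cytokine receptors were 1368 CPM higher in knockout mice. Secreted cytokines and the NK cell list overlapped between genotypes there. The leukocyte list (4476 and 9875 against 14765 and 10132) and class II (5198 and 5789 against 18356 and 18237) were higher in both knockout mice. That setting left very few nuclei, 0.0250% and 0.0162% of the kept nuclei of knockout mouse 1 and 2. It removed 51 of the 53 members of knockout mouse 1 and 29 of the 30 members of knockout mouse 2.

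Within leukocyte-rich members the leukocyte list was closer between mice, and that list had chosen these nuclei. It stood at 9128, 9358, 10661 and 7903 CPM, and *Ptprc* at 1075, 1512, 2049 and 1378, in the order of mice above. *Tyrobp*, in contrast, had 25 and 16 UMIs in control and 45 and 0 in knockout mice, the last from 7 nuclei. *Lyz2* had 44, 71, 115 and 6 UMIs in these nuclei. *Mrc1* had 8 and 8 UMIs in control and 0 and 1 in knockout mice.

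**Figure D5:**
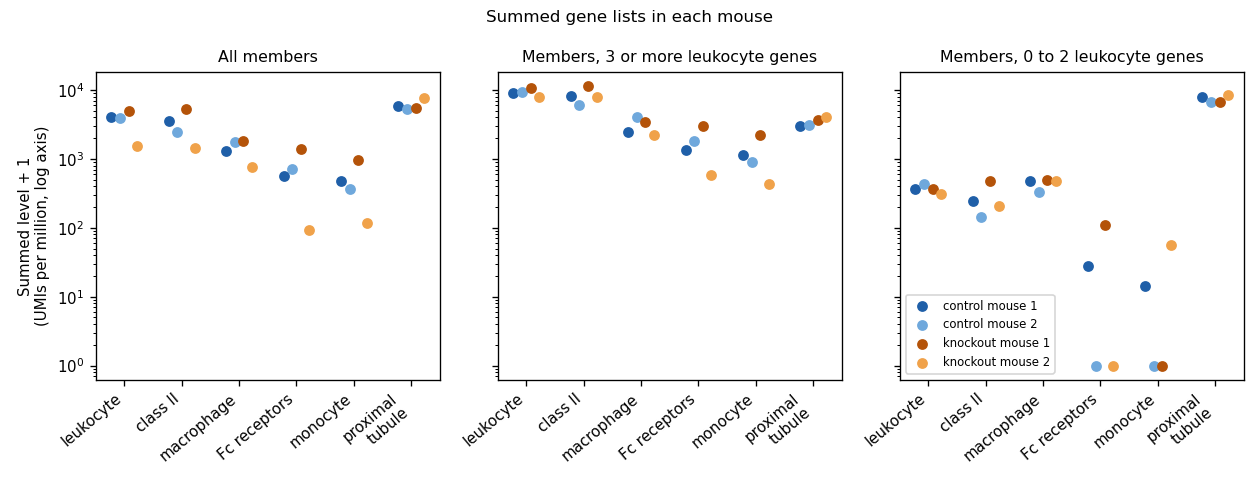
Summed level plus 1 of 6 gene lists (y axis, CPM on a log axis) in each mouse, for all members, members with 3 or more leukocyte genes and members with 0 to 2. Over all members the leukocyte list spans 1519 to 4929, and within members with 3 or more leukocyte genes 7903 to 10661.

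No gene passed the test between genotypes in the members. UMIs were summed per mouse, and 7634 genes were tested with the quasi-likelihood test of edgeR, with p-values adjusted after Benjamini and Hochberg. It called 0 genes (0%) at an adjusted p under 0.05, with a smallest adjusted p of 0.777. An unadjusted p under 0.05 was reached by 195 genes, and DESeq2 called 0 genes and had 47 at that unadjusted level. Over the 19 tested genes of the leukocyte list 0 were called, 13 had a negative fold change, and the median log2 fold change (knockout minus control) was -0.38, against 0.02 over all genes tested. For class II antigen presentation 0 of 7 were called with a median of 0.08, for the macrophage list 0 of 11 with a median of -0.19, for cytokine receptors 0 of 14 with a median of -0.39, and for the proximal tubule list 0 of 9 with a median of 0.34. The share of leukocyte-rich members (27 of 53, 17 of 35, 29 of 53 and 7 of 30) differed beside these values, and its part was not tested.

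Single mice decided this count. Without knockout mouse 2, 24 genes were called, led by *Igha*, *Jchain*, *Slc12a3* and *Calb1*, and without knockout mouse 1, 19 were called, among them *Tyrobp*, *Lyz2*, *Siglech* and *Dnm3*. Leaving out control mouse 1 gave 4 genes (*Psca*, *AC117197.3*, *Acer2* and *Igfbp2*), and leaving out control mouse 2 gave 0 with 93 at an unadjusted p under 0.05. In each of these fits the lone mouse was assumed to vary like the pair.

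Rule genes and leading genes gave no call either. *Cd74* had 405 and 166 UMIs in control and 568 and 132 in knockout mice (log2 fold change 0.51, adjusted p = 1 by edgeR). *Csf1r* had 33 and 30 against 28 and 29 UMIs (0.02). *C1qc* had 18 and 11 against 4 and 8 (-1.03), *Mrc1* 10 and 11 against 4 and 2 (-1.62) and *Siglech* 41 and 3 against 9 and 0. In bulk sums of this kind fewer nuclei of a type and less RNA per nucleus cannot be told apart.

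The genes with the smallest unadjusted p, none of them called, were for the most part not leukocyte genes. *Psca*, a surface antigen known from urothelium, had 11 and 41 UMIs in control and 0 and 1 in knockout mice (adjusted p = 0.777, edgeR), and 20 of its 53 UMIs were in 1 nucleus. *Npy*, a neuropeptide, had 34 and 30 against 1 and 4 UMIs over 11 nuclei, with 25 in 1 nucleus (log2 fold change -3.44). *Prrg1* had 9 and 13 UMIs in control and 0 in both knockout mice, at least 6.48-fold lower with a floor of 3 UMIs over the group, and 18 of its 22 UMIs were in leukocyte-poor members. *Hpgd*, which breaks down prostaglandins, had 10 and 15 against 0 and 1 UMIs, of which 24 were in leukocyte-rich members. *Dnm3* had 34 and 30 against 8 and 2 UMIs over 23 members (log2 fold change -2.50).

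In the other direction *Nat8f6* had 0 UMIs in both control mice, 8 in knockout mouse 1 and 11 in knockout mouse 2, spread over 14 members. With the same floor it was at least 7.16-fold higher in knockout mice. *Igha*, *Jchain* and *Slc12a3* followed among the 10 genes with the smallest p, each resting on 1 nucleus of knockout mouse 1 as described above. *Calb1* (59 of its 72 UMIs in knockout mouse 1) and *Abca13* (27 of 36 UMIs in 1 nucleus) were in the same list. Within it *BC018473* had 3 and 3 UMIs in control and 8 and 28 in knockout mice over 21 members (log2 fold change 2.76).

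The change between genotypes was also compared between members and all other nuclei in a single edgeR model with a term for each mouse. Of 7634 genes 0 (0%) differed at an adjusted p under 0.05, and 186 had an unadjusted p under 0.05. The count of 0 at the adjusted level did not hold when either knockout mouse was left out, which leaves 1 mouse in that group. In the other nuclei alone edgeR called 0 of 20225 genes (0%), with 988 at an unadjusted p under 0.05, and DESeq2 called 40 and had 757 at that level. *Npy* had a log2 fold change of -1.61 in the other nuclei, *Psca* of -0.94 and *Nat8f6* of 2.17, none of them called.

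*Tfap2a* itself (chromosome 13, 40713802 to 40738238 of mm10) had 10 UMIs in 7 members, 4 and 1 in control and 4 and 1 in knockout mice, and *Tfap2b* had 3. Their summed level was 33.1 CPM in members and 105.6 CPM in other nuclei, and free RNA held *Tfap2a* at 7.94 CPM.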

How the data were processed

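Nuclei were sequenced by the authors with droplet libraries, and counts of UMIs per gene and barcode were deposited as made by Cell Ranger 3.0.2 against mm10. Library totals ran from 22179410 to 44964099 UMIs. The 10000 barcodes richest in UMIs per library were kept if they had more than 500 and fewer than 4000 genes and under 5% mitochondrial UMIs. The members and gene lists were chosen with earlier results of these data known. Counts were summed per mouse, genes with at least 10 UMIs over 4 mice were kept, and genotypes were compared with edgeR 4.0.16 (TMM, quasi-likelihood), with DESeq2 1.42.0 as an alternative, in R 4.3.3. The edgeR test was checked on simulated counts with 1 fixed spread between mice. That spread (dispersion) lay between the 0.144 estimated in members and the 0.0483 in other nuclei. The check required only median fold changes near those set, so it does not show the error rate in these data. Single values were compared by exact permutation over mice. Named genes were the 10 per direction with the smallest p, since none was called, and the 25 with the highest ratio of members to other nuclei (10 CPM added, at least 20 UMIs, seen in every mouse), besides the most counted genes of each list. Other genes, such as *Igha*, *Grm8* and *Cyp7b1*, and those described at or near 0, were singled out after their values were seen.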

Additional observations from a re-analysis of the deposited data

How the results depend on the processing

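The share of members was lower in knockout mice under each of its 13 alternatives, by 0.00208 to 0.179 percentage points. Dropping the limit of 10000 barcodes left the same nuclei, and the replicate block gives the main difference by construction, so neither could change it. All alternatives used the same mice. Counts of genes changed in members rose from 0 to 10 with no filter on low counts, and ranged from 0 to 24 when 1 mouse was left out, while they stayed at 0 with DESeq2, edgeR without TMM, filterByExpr, at least 3 rule genes, mitochondrial UMIs under 1%, members with few tubule genes and an adjusted p under 0.1. For other nuclei the count without 1 mouse was 0 to 1, and for the difference test 0 to 20. Replicate numbers are shared between genotypes, and the labels do not say whether they mark a litter or a day. Library totals were 42138345 (control) and 44964099 (knockout) UMIs for number 1, against 24998797 and 22179410 for number 2. The median mitochondrial share of other nuclei was 1.65% and 1.05% for number 1, against 0.670% and 0.415% for number 2. With 2 pairs, deviations of same-numbered mice correlated at 0.147 over genes, and the numbers were not taken as pairs. With the replicate block 0 genes were called (smallest adjusted p 0.0786, edgeR), and the share differed by -0.0906 percentage points (-0.0223 and -0.159 within numbers).

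Knockout minus control, the median depth of 128.75 UMIs turned to -183.75 with at least 3 rule genes, -215.75 without members that had 3 tubule genes and -100.5 in members with 3 leukocyte genes (chosen after seeing the data), and ran from -479 to 736.5 without 1 mouse. The median of 37.5 genes turned to -148.25, -171.0 and -48.5, with -281.5 to 356.5 without 1 mouse. Mitochondrial percent (-0.335) ran from -0.967 to 0.298 without 1 mouse, with 0.298 without control mouse 1 and 0.211 without knockout mouse 2. The leukocyte list (-748.5 CPM) turned to 5273 without members that had 3 tubule genes, which left 18 members, and to 39.3 in members with 3 leukocyte genes, and ran from -2453 to 956.4 without 1 mouse. Class II (306.4 CPM) ran from -1613 to 2226 without 1 mouse, with -241.7 without control mouse 2, and rose to 12803 without members that had 3 tubule genes. The macrophage list (-264.8 CPM) ran from -785.2 to 255.7 without 1 mouse and was -1471 without members that had 3 tubule genes. The proximal tubule list (1034 CPM) turned to -247.3 without members that had 3 tubule genes and ran from -133.9 to 2202 without 1 mouse. The cause of these changes was not tested. The narrower counts held 5 to 29 nuclei per mouse. With 2 mice a genotype, the exact permutation test could not go under p = 0.33 for a difference of any size. The counting intervals do not cover the spread between mice.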

Other observations

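Interferon response genes were uneven between single mice, with summed levels of 203.7 and 731.5 CPM in control and 694.0 and 116.0 CPM in knockout mice. At least 2 of the 14 genes were found in 4, 14, 12 and 0 members of control mouse 1, control mouse 2, knockout mouse 1 and knockout mouse 2. *Aqp2*, the water channel of collecting duct principal cells, had 312 UMIs in 25 members and 137 of these UMIs in 12 leukocyte-rich members. The list of 8 distal nephron and collecting duct genes that holds *Aqp2* was uneven in leukocyte-rich members. It stood at 3640 CPM in control mouse 1, 189.0 in control mouse 2, 460.5 in knockout mouse 1 and 72.5 in knockout mouse 2. Only 3 leukocyte-rich members had 3 or more of its genes.

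Among the 38 nuclei with 6 or more leukocyte genes that the rule left out, *Ccl4* had 46 UMIs in 3 nuclei and was listed at 0 in members. *H2-Aa* had 81 UMIs in 10 of the 38, so some of them held class II transcripts. Whether these were the nuclei with lymphocyte genes was not tested.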
